A study of Homo sapiens with 9 samples.

Results

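HSPA5, HSP90B1, XBP1, DNAJB9, DNAJC3, HERPUD1, SDF2L1, EDEM1, CALR and PDIA4, which encode chaperones of the endoplasmic reticulum (ER) and products of the unfolded protein response, were followed in breast cancer cells with LINC00673 knockdown. The 10 genes were found by their symbols among the 19930 genes with values, and all 10 had a single line and passed the filter on low values that left 12884 genes for testing. Messenger RNA had been sequenced 48 h after transfection of cells labelled MDA-MB-453, an established human breast cancer cell line, with a cationic lipid reagent. The groups were scramble control cells, X453_NC, and knockdown cells carried as X453_1 and X453_2, with 3 libraries each. The labels of both knockdown groups say Linc00673 knockdown and do not say which siRNA stands behind each number, nor whether the libraries of a group came from separate cultures, so that P values measure only the spread between these libraries. The level of LINC00673 itself was not analysed here.

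Each value is an FPKM, the fragments mapped to a gene per kilobase of its transcript and per M mapped fragments. The depth was estimated at 23.1 to 27.2 M fragments per library. The gene with the fewest fragments, DNAJB9, had an estimated 188 to 304 per library, SDF2L1 had 198 to 495, and HSPA5 had 16403 to 45870. Against the label of the cell line, the luminal transcription factor gene FOXA1, a marker of MDA-MB-453 cells, was listed at 0 in 7 of 9 libraries and did not exceed 0.04 FPKM. Among the other markers of this line, ERBB2 lay between 11.8 and 17.8 FPKM and FGFR4 between 17.9 and 33.1 FPKM, while SPDEF lay between 0.57 and 1.24 FPKM. The epithelial genes KRT8, KRT18, KRT19 and EPCAM were above 287 FPKM in every library. Of the markers of other cell types, PTPRC (blood cells), COL3A1 (fibroblasts) and PECAM1 (endothelium) did not exceed 0.12 FPKM, KRT5 (basal epithelium) did not exceed 0.63 FPKM, and COL1A1 (fibroblasts) lay between 3.49 and 7.08 FPKM. These are whole-culture libraries, in which fewer cells with a transcript and less of it per cell cannot be told apart.

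Proteins that are secreted or sit in membranes are folded in the ER. When unfolded proteins accumulate there, the chaperone BiP leaves the sensors IRE1, PERK and ATF6, which then signal to the nucleus. IRE1 splices XBP1 mRNA, ATF6 is cut to release a transcription factor, and PERK slows translation while favouring that of ATF4. The factors made from XBP1 and ATF6 switch on genes for chaperones, disulfide enzymes and ER-associated degradation, in part through ER stress response elements in their promoters. HSPA5 (the gene of BiP), HSP90B1 (GRP94), CALR (calreticulin) and PDIA4 (a disulfide isomerase) act on folding itself. DNAJB9, DNAJC3 and SDF2L1 work with BiP as co-chaperones, HERPUD1 and EDEM1 serve the degradation of misfolded proteins, and XBP1 encodes a transcription factor of the response.

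On GRCh37, the build the submitters name, HSPA5 lies on chromosome 9 from 127997127 to 128003666 and HSP90B1 on chromosome 12 from 104324112 to 104341708. The table puts CALR on chromosome 19 from 13049414 to 13055304. XBP1 is on chromosome 22 from 29190548 to 29196560, and SDF2L1 is on the same chromosome from 21996542 to 21998588. HERPUD1 is on chromosome 16 from 56966002 to 56977793. The RefSeq promoter windows of GRCh38.p14, which run from 250 bases before to 50 bases after a start site, were searched on both strands for the ER stress response element ERSE, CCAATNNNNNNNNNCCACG, and for ERSE-II, ATTGGNCCACG. All 10 genes had a window, 12 windows in total.

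An exact ERSE was found in 4 of the 10 genes (HSPA5, HSP90B1, XBP1 and CALR) and an exact ERSE-II in 2 (HERPUD1 and SDF2L1). Of the 35116 windows of all genes, 0.0769% held ERSE and 0.0541% held ERSE-II. The counts are of genes and the shares are of windows. The 10 genes belong to the response that these elements serve, so the difference is not an enrichment found here and was not tested. No exact match to ERSE or ERSE-II was found for DNAJB9, DNAJC3, EDEM1 and PDIA4, which says only that these letters are not in these windows. A match is a description of the sequence and not a site shown to be used. The core TGACGTGG of the UPR element was in 0 of the 10 genes and in 0.729% of all windows. The stretches below, 5′ to 3′ on the strand of the gene, are shown because they carry the matches by which the promoters of these genes can be compared, with the match in capitals; for HSP90B1 site b, SDF2L1 and CALR it is on the other strand, so that the capitals show its reverse complement. They lie on GRCh38.p14 at chr9:125241361-125241439 (HSPA5, minus strand), chr12:103930186-103930264 and chr12:103930291-103930369 (HSP90B1, plus), chr22:28800573-28800651 (XBP1, minus), chr19:12938359-12938432 (CALR, plus), chr16:56931995-56932065 (HERPUD1, plus) and chr22:21642084-21642154 (SDF2L1, plus).
HSPA5: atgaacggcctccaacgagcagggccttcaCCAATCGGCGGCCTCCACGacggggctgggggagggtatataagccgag
HSP90B1 site a: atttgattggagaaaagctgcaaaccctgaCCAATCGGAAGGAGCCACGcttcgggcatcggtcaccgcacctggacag
HSP90B1 site b: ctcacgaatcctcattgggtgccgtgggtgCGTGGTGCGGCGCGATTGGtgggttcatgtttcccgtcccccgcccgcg
XBP1: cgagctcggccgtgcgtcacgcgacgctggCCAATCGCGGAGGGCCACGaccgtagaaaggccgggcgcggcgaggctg
CALR: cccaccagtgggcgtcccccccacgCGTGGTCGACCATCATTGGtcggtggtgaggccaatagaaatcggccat
HERPUD1: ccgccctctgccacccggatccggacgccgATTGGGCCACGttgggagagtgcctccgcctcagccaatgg
SDF2L1: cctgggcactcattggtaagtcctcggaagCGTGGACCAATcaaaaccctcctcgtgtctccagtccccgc

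Counted from the start site, the ERSE of XBP1 ended closest to it, 34 bases upstream, and that of HSPA5 ended 48 bases upstream. The match of CALR began farthest away, 225 bases upstream. HSP90B1 was the only one of the 10 genes with 2 matches, 1 on each strand.

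**Figure D1:**
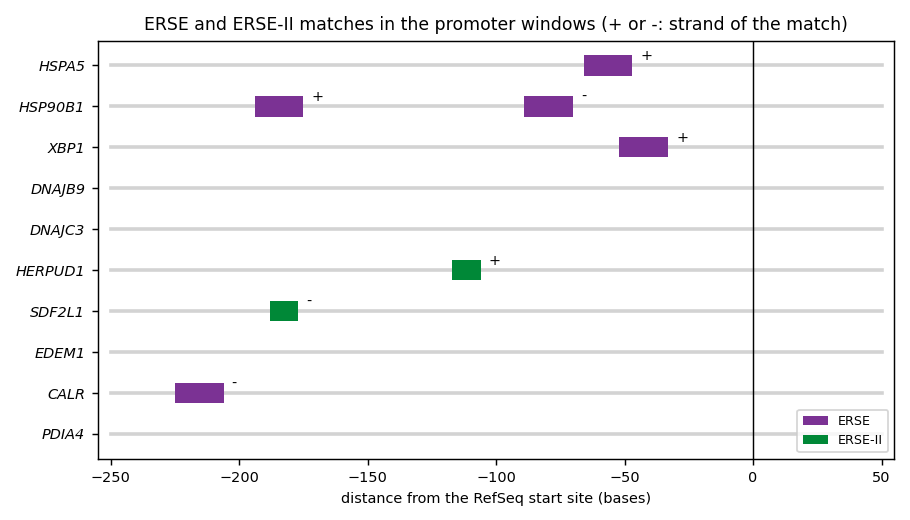
Positions of exact ERSE (purple) and ERSE-II (green) matches in the promoter windows of the 10 genes, by distance from the RefSeq start site in bases, with the strand of each match beside it. Matches stand in 6 of the 10 genes, 2 of them in HSP90B1, and all lie upstream of the start site.

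To learn how each knockdown changed these genes, each knockdown group was compared with X453_NC on log2(FPKM + 1). A gene was called differentially expressed where its fold change reached 1.3 in either direction (0.379 on the log2 scale) with an unadjusted P no higher than 0.05, the criteria of the study. Adjusted P values are those of limma with Benjamini-Hochberg adjustment over all 12884 genes, and ± gives the SD of 3 libraries. With 3 libraries against 3, the smallest P of an exact two-sided permutation test on a gene is 0.1, so that the P values rest on the spread shared across genes. The comparisons with control share the X453_NC libraries.

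In X453_1, HSPA5 and PDIA4 were upregulated, and XBP1 and SDF2L1 were downregulated. These are 4 of the 10 genes, whereas 26.7% of all genes tested were called, 11.1% higher and 15.6% lower. The 3 X453_1 libraries lay on 1 side of the 3 control libraries for all 10 genes, as they did for 70% of all genes tested. In X453_2, HSPA5, HSP90B1, CALR, PDIA4 and HERPUD1 were upregulated and XBP1 was downregulated. These 6 of 10 genes compare with 34% of all genes, where 11% were called higher and 23.1% lower. The libraries did not overlap for 9 of the 10 genes, DNAJC3 being the exception, and for 73% of all genes. The median log2 fold change of the 10 genes was 0.12 in X453_1 and 0.275 in X453_2, and the median of all genes tested was 0.003 and -0.095. The direction split of all called genes depended on the processing. Lower genes made up 58.3% of those called in X453_1 and 67.8% in X453_2. In the same order, the shares were 43.6% and 65.0% after rescaling to equal sums and 58.4% and 53.6% after scaling by the median ratio. After a correction for GC content, over the 11380 genes where it was known, they were 50.1% and 48.7%.

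**Figure D2:**
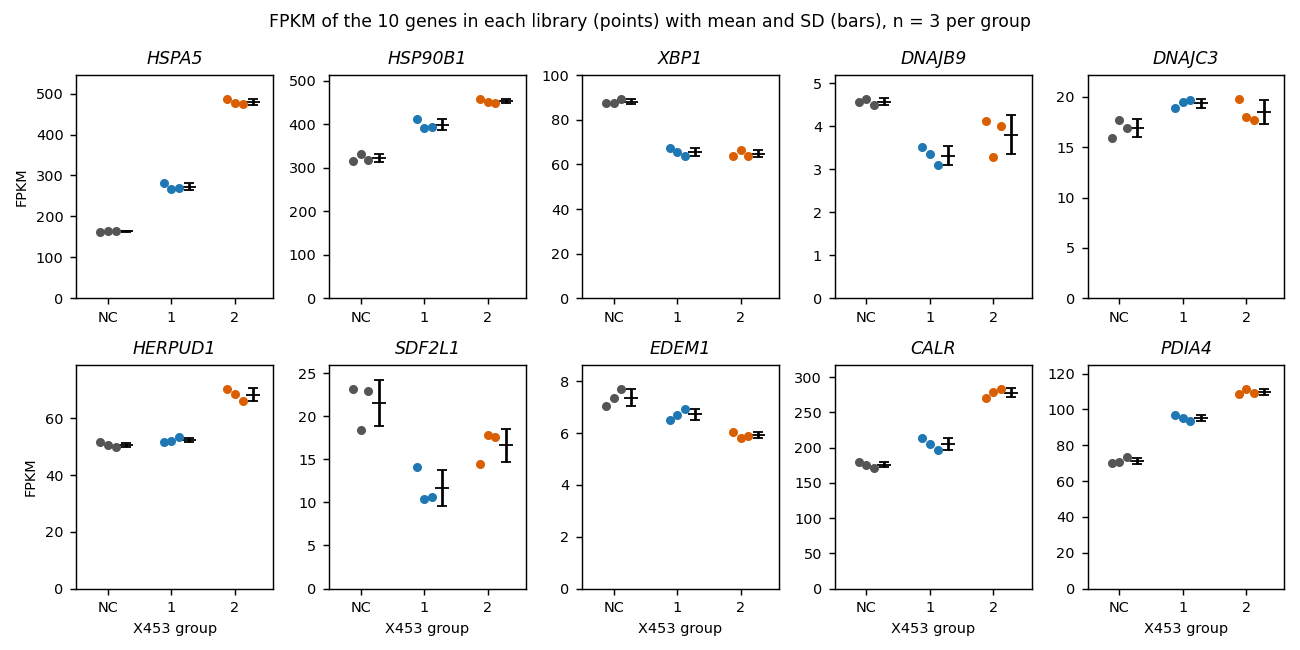
FPKM of the 10 genes in each library (points, linear axis from 0) for control cells (NC) and the knockdown groups 1 and 2, with the mean and SD of 3 libraries beside them. HSPA5 climbs in steps from 164 to 273 to 480 FPKM, XBP1 drops in both knockdown groups from 88.1 to 65.6 and 64.7 FPKM, and HERPUD1 is higher than in control cells in group 2, at 68.4 FPKM, with group 1 at 52.3 and control cells at 50.7 FPKM.

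HSPA5 showed the largest log2 fold change of the 10 genes in X453_2, and its groups did not overlap. Its level was 163, 165 and 165 FPKM in the control libraries, 283, 267 and 269 FPKM in X453_1, and 488, 477 and 475 FPKM in X453_2. Every X453_1 library was above every control library and below every X453_2 library. Relative to control cells, the mean was 1.66-fold higher in X453_1 (log2 fold change 0.73, SE 0.028, adjusted P = 4.8e-08) and 2.92-fold higher in X453_2 (1.54, SE 0.028, adjusted P = 3.4e-10). BiP holds unfolded chains and gates the translocon, in addition to restraining the stress sensors.

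HSP90B1 encodes the HSP90 paralog of the ER, which folds integrins and Toll-like receptors. It stood at 315, 332 and 317 FPKM in control cells, at 413, 391 and 394 FPKM in X453_1, and at 459, 451 and 450 FPKM in X453_2. The groups were separate in the same order as for HSPA5, with smaller steps. The log2 fold change was 0.49 in X453_2 (SE 0.030, adjusted P = 4.6e-07), which was called. In X453_1 it was 0.31 (SE 0.030, adjusted P = 1.4e-05), below the fold change limit. After rescaling to equal sums, the X453_1 value was 0.40 and passed.

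CALR encodes calreticulin, the soluble lectin chaperone that binds glycoproteins and calcium. CALR was measured at 179, 176 and 172 FPKM in control cells, 213, 205.1 and 196 FPKM in X453_1, and 271, 279 and 284 FPKM in X453_2. Again no library of a group reached into the next group. CALR rose in X453_2, by 0.66 on the log2 scale (SE 0.034, adjusted P = 1.5e-07). Its value in X453_1 was 0.22 (SE 0.034, adjusted P = 3e-04), below the fold change limit.

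PDIA4 is a disulfide isomerase with several thioredoxin domains. It stood at 70.1, 70.7 and 73.3 FPKM in control cells, 97.1, 95.3 and 93.6 FPKM in X453_1, and 109, 112 and 109 FPKM in X453_2. It was upregulated in X453_1 by 0.41 (SE 0.029, adjusted P = 1.5e-06) and in X453_2 by 0.61 (SE 0.029, adjusted P = 7.1e-08) on the log2 scale. These 4 folding genes together summed to 733 ± 9.67 FPKM in control cells, 972 ± 29.4 FPKM in X453_1 and 1321 ± 4.78 FPKM in X453_2.

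XBP1, which encodes the transcription factor downstream of IRE1, went the other way. Its level was 87.4, 87.4 and 89.5 FPKM in control cells, 67.5, 65.8 and 63.6 FPKM in X453_1, and 63.9, 66.6 and 63.8 FPKM in X453_2. All 6 knockdown libraries were below all 3 control libraries, and the knockdown groups overlapped with each other. XBP1 fell by 0.42 on the log2 scale in X453_1 (SE 0.031, adjusted P = 2.3e-06) and by 0.44 in X453_2 (SE 0.031, adjusted P = 1.2e-06). These values sit near the fold change limit: the X453_1 value was -0.34 after rescaling to equal sums, and the X453_2 value was -0.34 after scaling by the median ratio, both below the limit in size. The FPKM counts fragments of the whole gene and cannot tell spliced from unspliced XBP1 mRNA.

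Among the co-chaperones, SDF2L1 was called lower in X453_1. It was at 23.2, 18.5 and 22.9 FPKM in control cells, 14.1, 10.4 and 10.6 FPKM in X453_1, and 14.4, 17.9 and 17.6 FPKM in X453_2. The highest X453_2 library, at 17.9 FPKM, was just below the lowest control library. SDF2L1 fell by 0.83 on the log2 scale in X453_1 (SE 0.125, adjusted P = 2.4e-04), and its value in X453_2 was -0.35 (SE 0.125, adjusted P = 0.028), below the fold change limit. SDF2L1 was the most GC-rich of the 10 genes, at 65.5% and the 97.1 percentile of genes, and after a correction for GC content its values were -0.37 in X453_1, no longer called, and 0.12 in X453_2. Left out in turn, 1 control library (r1) or either of 2 X453_2 libraries (r1 or r2) moved the X453_2 value past the limit, to -0.45, -0.40 and -0.39.

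DNAJB9 (ERdj4), a J-domain partner of BiP and an XBP1 target, was the gene of lowest level. It was measured at 4.57, 4.64 and 4.49 FPKM in control cells, 3.51, 3.35 and 3.09 FPKM in X453_1, and 4.11, 3.28 and 4.0 FPKM in X453_2. All knockdown libraries were below the control libraries. The log2 fold change was -0.37 in X453_1 (SE 0.071, adjusted P = 0.0011) and -0.22 in X453_2 (SE 0.071, adjusted P = 0.018), and neither passed the fold change limit. With 0.1 FPKM added in place of 1, the X453_1 value was -0.45 and passed, as it did after the correction for GC content (-0.44) and without the X453_1 library with no suffix (-0.40).

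DNAJC3 (P58IPK), a BiP co-chaperone also known as an inhibitor of PERK, ranged from 15.95 to 17.7 FPKM in control cells, from 18.9 to 19.7 FPKM in X453_1 and from 17.7 to 19.8 FPKM in X453_2. The ranges of X453_2 and of control cells overlapped. Its log2 fold change was 0.19 in X453_1 (adjusted P = 0.0080) and 0.13 in X453_2 (adjusted P = 0.048), both below the limit.

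Of the genes that serve ER-associated degradation, HERPUD1, a membrane component of the retrotranslocation complex, was called in X453_2 and not in X453_1. It stood at 51.5, 50.5 and 50.0 FPKM in control cells, 51.6, 52.1 and 53.3 FPKM in X453_1, and 70.5, 68.5 and 66.2 FPKM in X453_2. The lowest X453_1 library, at 51.63 FPKM, lay just above the highest control library, at 51.5 FPKM, while the X453_2 libraries stood well clear of both groups. HERPUD1 rose in X453_2, by 0.42 on the log2 scale (SE 0.031, adjusted P = 1.3e-06). Its value in X453_1 was 0.05, with a 95% confidence interval of -0.02 to 0.12. EDEM1, which draws misfolded glycoproteins into degradation, ranged from 7.05 to 7.72 FPKM in control cells, from 6.53 to 6.95 FPKM in X453_1 and from 5.83 to 6.05 FPKM in X453_2. The values of EDEM1 were lower than in control cells in every knockdown library, by a log2 fold change of -0.12 in X453_1 (adjusted P = 0.040) and -0.27 in X453_2 (adjusted P = 3e-04), and neither was called.

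**Figure D3:**
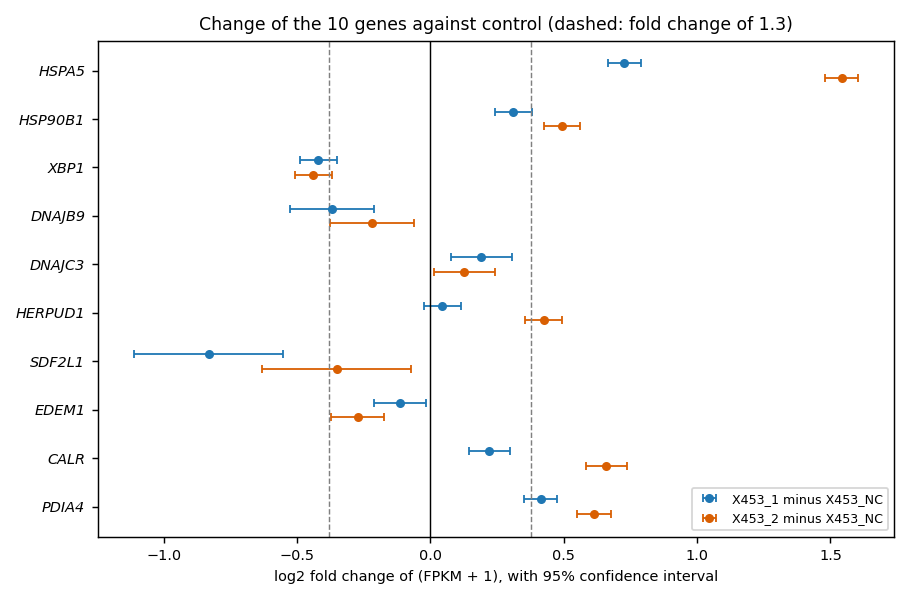
Log2 fold change of (FPKM + 1) of the 10 genes in X453_1 (blue) and X453_2 (orange) relative to X453_NC, with 95% confidence intervals from the fit across all genes, and the fold change limit of 1.3 as dashed lines. HSPA5 lies at 0.73 and 1.54, and XBP1 at -0.42 and -0.44 on the other side of 0, with intervals that cross the dashed line.

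The knockdown groups were then compared directly. Of the 10 genes, 4 were called higher in X453_2 than in X453_1 and 0 lower, where 7.64% of all genes were called, 2.19% higher and 5.45% lower. The libraries did not overlap for 7 of the 10 genes, compared with 53.7% of all genes. HSPA5 was higher in X453_2 by 0.81 on the log2 scale (95% confidence interval 0.75 to 0.88, adjusted P = 2.6e-07). CALR was higher by 0.44 (0.36 to 0.52, adjusted P = 2.1e-05) and SDF2L1 by 0.48 (0.20 to 0.76, adjusted P = 0.012). HERPUD1 was higher by 0.38 (0.31 to 0.45, adjusted P = 2.8e-05), at the limit itself, and was no longer called without any 1 of 4 libraries (X453_1 or X453_2, no suffix or r1), where it lay between 0.36 and 0.38. After rescaling to equal sums HERPUD1 (0.32) and CALR (0.38) were not called. The difference was 0.18 for HSP90B1 and 0.20 for PDIA4, both below the limit, with the libraries apart. EDEM1 was lower by a value of -0.16. The groups overlapped for XBP1, whose difference was -0.02 with an interval of -0.09 to 0.05, for DNAJB9 (0.15, interval -0.01 to 0.31) and for DNAJC3 (-0.06, interval -0.18 to 0.05).

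The order of the levels changed between groups. FPKM divides by transcript length but does not remove effects of GC content or of fragments shared with pseudogenes, so this order is approximate. In control cells HSP90B1 was highest, at 322 ± 9.49 FPKM, followed by CALR (176 ± 3.69 FPKM), HSPA5 (164 ± 1.19 FPKM) and XBP1 (88.1 ± 1.22 FPKM), and no neighbours in the order of 10 genes overlapped. In X453_1, HSPA5 (273 ± 8.70 FPKM) stood above CALR (204.9 ± 8.39 FPKM), and PDIA4 (95.3 ± 1.78 FPKM) above XBP1 (65.6 ± 1.92 FPKM), again with no overlap. In X453_2 HSPA5 was highest, at 480 ± 6.82 FPKM, above HSP90B1 at 453.2 ± 5.02 FPKM, while HERPUD1 and XBP1 overlapped, as did DNAJC3 and SDF2L1. DNAJB9 was lowest in each group.

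Expressed as a ratio of FPKM within a library, HSPA5 was 0.495 to 0.520 of HSP90B1 in control cells, 0.682 to 0.685 in X453_1 and 1.06 in all 3 X453_2 libraries. HSPA5 over XBP1 was 1.84 to 1.89, 4.06 to 4.22 and 7.16 to 7.64 in the same order. These ratios do not depend on the scaling of the libraries. The 10 genes together held 0.176% of the summed FPKM of a control library, 0.230% in X453_1 and 0.291% in X453_2.

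Across the 9 libraries, the log2 level of HSPA5 had a Pearson correlation of 0.98 with CALR, 0.98 with HSP90B1, 0.97 with PDIA4 and 0.91 with HERPUD1. It was 0.52 with DNAJC3, -0.35 with SDF2L1, -0.50 with DNAJB9, -0.86 with XBP1 and -0.95 with EDEM1. The genes outside the set whose levels were most like that of HSPA5 were DNAJB1 (0.999), ERRFI1 (0.998), HSPA1A (0.998), ATF3 (0.998) and DUSP1 (0.997), and 32 named genes exceeded 0.99. DNAJB1 and HSPA1A encode cytosolic heat shock proteins. DNAJB1 averaged 66.7 ± 1.17, 186 ± 5.71 and 652 ± 38.7 FPKM in X453_NC, X453_1 and X453_2. HSPA1A averaged 8.54 ± 0.994, 32.9 ± 3.25 and 176 ± 4.71 FPKM, a value that cannot be separated from that of its near-identical copy HSPA1B if shared fragments were split between them. These correlations are descriptions over 9 libraries in 3 groups, and the points share their libraries and groups.

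Further genes of the secretory pathway were taken from 8 lists of 131 genes, of which 129 were tested (FICD and DERL3 were below the filter). In X453_1, 17 were called higher (13.2%) and 16 lower (12.4%), where 11.1% and 15.6% of all genes tested were, and their median log2 fold change was 0.045. In X453_2, 20 were higher and 20 lower (15.5% each), where 11% and 23.1% of all genes were, and the median was -0.02. Between the knockdown groups, 5 were higher in X453_2 (3.88%) and 2 lower (1.55%), where 2.19% and 5.45% of all genes were. The counts of the single lists that follow are to be read against these shares of all genes. The values below carry no correction for GC content, which moved the values of SDF2L1. GC percentiles of the genes named for the largest falls were 77.1 (ATF6B), 94.3 (FKBP2), 3.51 (TMX3), 88.6 (MOGS), 82.3 (UBE2J2), 8.27 (TRAM1) and 91.7 (CHAC1). For the largest rises they were 36.65 (NFYA), 7.55 (DNAJB11), 10.95 (ERO1A), 49.98 (DAD1), 43.9 (UFD1), 3.29 (SEC61G), 38.4 (SEC24D) and 42.8 (ATF3).

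Of 16 tested ER stress sensors and transcription factors, 1 was higher and 3 lower in X453_1, and 1 was higher and 6 lower in X453_2. The medians were -0.14 and -0.295. ATF6B, a paralog of the sensor ATF6, fell from 26.3 FPKM to 13.9 and 12.7 FPKM (log2 fold change -0.87 and -0.997, adjusted P = 4.5e-07 and 1.1e-07). ERN1, the gene of IRE1, was at -0.19 and not called in X453_1, and was called at -0.38 in X453_2, while ATF6 (-0.20 and -0.30) and EIF2AK3, the gene of PERK (-0.10 and -0.30), were not called in either. NFYA, a subunit of the NF-Y complex that binds the CCAAT part of ERSE, rose in X453_1 from 11.4 to 16.1 FPKM (0.46) and was at 14.3 FPKM in X453_2 (0.30, not called).

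Of 16 other ER chaperones and co-chaperones, 0 were higher and 3 lower in X453_1, and 2 were higher and 3 lower in X453_2, with medians of -0.06 and -0.035. FKBP2, a prolyl isomerase of the ER, fell from 55.8 FPKM to 13.1 and 17.2 FPKM (log2 fold change -2.03 and -1.66). DNAJB11 (ERdj3), a J-domain partner of BiP, was at 0.22 in X453_1 and was called at 0.39 in X453_2. HYOU1, a nucleotide exchange factor of BiP, was at -0.01 and -0.03, and CANX (calnexin), the membrane-bound relative of calreticulin, at 0.18 and 0.17, so that neither was called.

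Of 15 tested disulfide enzymes, 2 were higher and 1 lower in X453_1, and 4 were higher and 1 lower in X453_2, with medians of 0.15 and 0.21. ERO1A, the oxidase that feeds disulfide isomerases, rose from 23.8 FPKM to 37.0 and 40.4 FPKM (0.61 and 0.74), and TMX3, a membrane-bound isomerase, fell (-0.49 and -0.53). P4HB and PDIA3, the most studied isomerases, were not called (0.00 and 0.13 for P4HB, 0.35 and 0.28 for PDIA3). Of 13 genes of N-glycosylation and the calnexin cycle, 2 were higher and 1 lower in X453_1 and 3 were higher and 1 lower in X453_2, with medians of 0.18 and 0.20. DAD1, an oligosaccharyltransferase subunit, rose from 157 FPKM to 219 and 269 FPKM (0.48 and 0.78), and MOGS, the first glucosidase to trim the glycan, fell from 29.02 FPKM to 16.4 and 12.97 FPKM (-0.79 and -1.10).

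Of 23 tested genes of ER-associated degradation, 2 were higher and 1 lower in X453_1 and 1 was higher and 2 lower in X453_2, with medians of 0.03 and -0.02. UFD1, a cofactor of the extracting ATPase VCP, rose (0.43 and 0.64), and the ubiquitin-conjugating enzyme UBE2J2 was at -0.31 in X453_1 and was called at -0.56 in X453_2. Of 18 translocation genes, 4 were higher and 2 lower in X453_1 and 2 were higher and 2 lower in X453_2, with medians of -0.01 and 0.00. SEC61G, a subunit of the translocon, rose from 200.3 FPKM to 313 and 399 FPKM (0.64 and 0.99), while TRAM1, which helps chains to enter it, fell from 27.7 FPKM to 16.9 and 14.8 FPKM (-0.68 and -0.86). Of 17 genes of ER-to-Golgi transport, 4 were higher and 0 lower in each comparison, with medians of 0.25 and 0.19. SEC24D, a cargo-binding subunit of the COPII coat, rose from 6.60 FPKM to 9.85 and 9.87 FPKM (0.52 in each).

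The arm downstream of PERK held called genes in both directions. Of its 11 genes, 2 were higher and 5 lower in X453_1, and 3 were higher and 5 lower in X453_2, with medians of -0.36 and -0.27. CHAC1, which degrades glutathione and is a known ATF4 target, fell from 11.8 FPKM to 2.53 and 0.970 FPKM (-1.86 and -2.70, adjusted P = 2e-08 and 6.8e-10). ATF3, a stress-induced transcription factor, rose from 7.01 FPKM to 11.9 and 19.4 FPKM (0.69 and 1.35, adjusted P = 6.7e-07 and 4.9e-09). ATF4 itself was at 358 FPKM in control cells and at 278 and 296 FPKM in the knockdown groups (-0.36 and -0.27), and was not called. Of the other called genes, PPP1R15A was higher in both comparisons (0.47 and 1.07). DDIT3 was higher in X453_2 (0.795) and not called in X453_1 (0.23). TRIB3 (-1.67 and -1.89), ATF5 (-1.25 and -1.10), SESN2 (-0.47 and -0.48) and CEBPB (-0.89 and -0.80) were lower in both, at GC percentiles of 87.5, 84.5, 83.1 and 97.7.

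**Figure D4:**
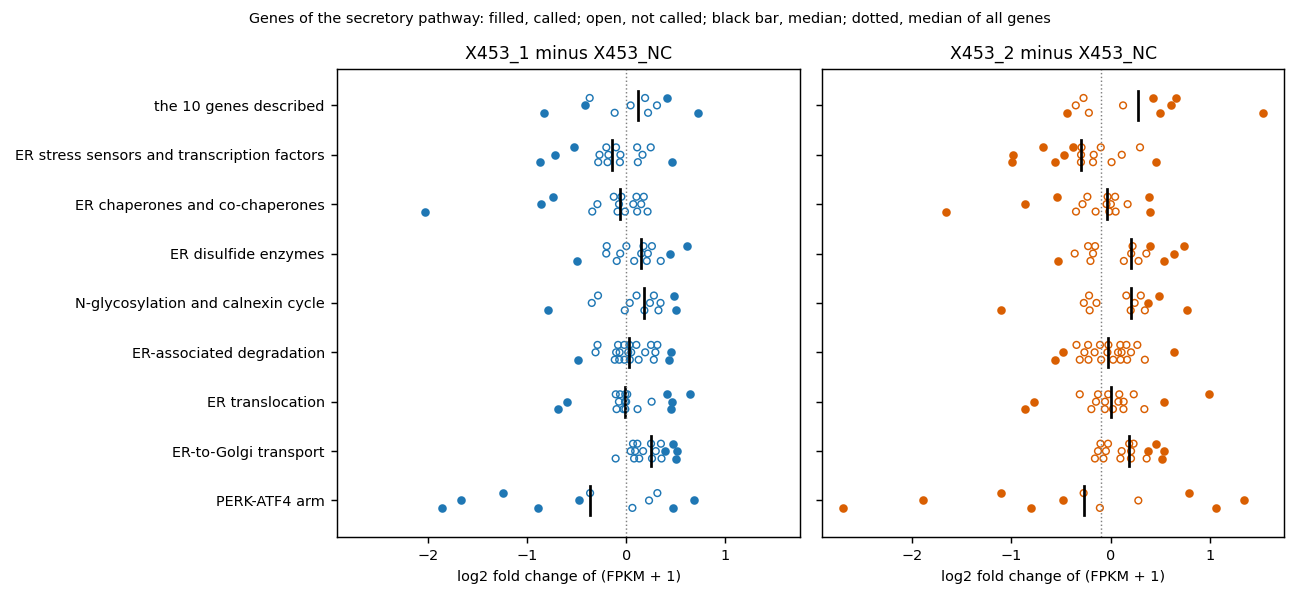
Log2 fold change of (FPKM + 1) relative to X453_NC for the 10 genes and for the tested genes of the 8 wider lists, in X453_1 (left) and X453_2 (right). Filled points were called, open points were not, black bars are list medians and the dotted line is the median of all genes tested, at 0.003 and -0.095. Called genes stand on both sides of 0 in every list and comparison except the ER chaperones and co-chaperones in X453_1, with 0 higher and 3 lower, and ER-to-Golgi transport, with 4 higher and 0 lower in each.

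The promoter matches did not divide the 10 genes by the direction of their calls. Among the 6 genes with an exact ERSE or ERSE-II, HSPA5, HSP90B1, CALR and HERPUD1 were called higher in at least 1 comparison. XBP1 was called lower in both and SDF2L1 in X453_1. Of all genes tested, 11.1% were called higher and 15.6% lower in X453_1, and 11% and 23.1% in X453_2. The lower calls depended on the processing. After the correction for GC content, SDF2L1 was at -0.37 in X453_1, not called, and at 0.12 in X453_2. After a correction for transcript length, XBP1 kept its direction and was called in neither (-0.34 and -0.33). The ERSE of XBP1 and that of HSPA5 both stand on the strand of the gene, and HSPA5 was called higher and XBP1 lower in both comparisons. PDIA4, with no exact match, was called higher in both. Among the wider lists, 114 of 131 genes had a window, and 6 held an exact match, namely FICD, CANX, HYOU1, CRELD2, PDIA6 and ERO1B. None of the 5 of these that were tested was called in either comparison with control, where 26.7% and 34% of all genes tested were. Their log2 fold changes in X453_1 and X453_2 were 0.18 and 0.17 (CANX), -0.01 and -0.03 (HYOU1), -0.125 and -0.234 (CRELD2), 0.21 and 0.21 (PDIA6), and -0.20 and -0.36 (ERO1B). ERO1B stood at 1.99 FPKM in control cells, a level at which the added 1 FPKM understates its change.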

How the data were processed

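RNA was extracted with Trizol and sequenced on the BGISEQ-500 platform. Per the labels, the submitters' processing notes name Bowtie2 (version 2) and GRCh37.p13, and the counting tool is not given in the sources used here. The authors deposited FPKM per gene and library, rounded to 2 decimals, in 1 table, and 4 lines with no values were left out. Its columns of the authors' own comparisons (log2 ratios and P and Q values between groups) were not used. Pseudogenes near-identical to HSPA5, HSP90B1 and XBP1 exist, and how fragments shared with them were counted is not stated, so these levels are uncertain to that extent.

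Genes averaging 1 FPKM or more across all 9 libraries entered the test on log2(FPKM + 1), which understates changes of low genes, with limma 3.58.1 in R 4.3.3 (lmFit, eBayes with a trend, all 9 libraries in 1 fit, group as the only factor). On simulated data the fit was tested before use. The members and gene lists were chosen with earlier results of these data known. From each wider list, the text names the called gene with the largest mean rise and that with the largest mean fall, and the 5 genes most like HSPA5. ERN1, ATF6, EIF2AK3, HYOU1, CANX, P4HB, PDIA3, ATF4 and the genes with a promoter match were named in addition, after their values were seen. So were the other called genes of the arm downstream of PERK. The spacing of low FPKM values gave the depth estimates. GC content was known for 11380 of the tested genes (88.3%). Promoter windows came from RefSeq (GRCh38.p14). Other software was matplotlib 3.10.9, numpy 2.4.6, pandas 2.3.3 and Python 3.11.15. One marker of the cell line is not reported here.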

Additional observations from a re-analysis of the deposited data

Results flagged for a closer look

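Of the 10 genes, 4 differed between the knockdown groups in the direct test of X453_2 against X453_1, by limma with Benjamini-Hochberg adjustment, all 4 of them higher. Of all genes tested, 7.64% were called in this test, 2.19% higher and 5.45% lower, and 53.7% had libraries that did not overlap. HSPA5 was higher in X453_2 by 0.814 on the log2 scale (adjusted P = 2.6e-07), in 3 of 3 libraries above all 3 of X453_1. CALR was higher by 0.438 (adjusted P = 2.1e-05) and SDF2L1 by 0.48 (adjusted P = 0.012), again with no overlap. HERPUD1 was higher by 0.379 (adjusted P = 2.8e-05), which equals the fold change limit on the log2 scale to 3 decimals.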

How the results depend on the processing

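The number of the 10 genes called was 4 in X453_1 and 6 in X453_2 against control, and 4 between the knockdown groups. The fold change limit moved these counts most: a limit of 1.5 gave 2, 3 and 1, where it called 12.2%, 17.6% and 1.74% of all genes, and no limit gave 9, 10 and 7, where it called 67.7%, 72.9% and 52.0% of all genes. Rescaling to equal sums gave 2 genes between the knockdown groups and 10.3% of all genes. Without 1 library at a time, the counts ranged from 4 to 5, from 6 to 7 and from 3 to 4. Of the 12884 genes tested in these fits, 1417 to 1511 were called higher and 1922 to 2081 lower in X453_1. In X453_2 they were 1398 to 1430 and 2893 to 3046, and between the knockdown groups 247 to 377 and 667 to 758. In a fit that adds a replicate block, 4, 6 and 4 of the 10 genes were called. All genes called against control were 3449 and 4400 in that fit, in place of 3436 and 4385. The deviations of libraries with the same suffix from their group means correlated at -0.239 to 0.104. No large shared deviation was seen, which cannot tell whether such libraries were prepared together.

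Signs turned only in values that were not called. Between the knockdown groups, the value of XBP1 was 0.084 after scaling by the median ratio, 0.028 by the upper quartile, 0.103 after the GC correction, 0.017 after the length correction and between -0.041 and 0.001 without 1 library at a time, positive only without the X453_1 library with no suffix. That of DNAJC3 was 0.034, 0.067 and 0.064 after the median ratio, GC and length corrections. After the GC correction, HERPUD1 was at -0.010 in X453_1 and SDF2L1 at 0.119 in X453_2. XBP1 kept its direction against control but dropped below the fold change limit after the length correction (-0.343 and -0.326) and, in X453_2, after scaling by the upper quartile (-0.353). DNAJB9 and SDF2L1 had the fewest estimated fragments of the 10 genes. SDF2L1 had the larger SE against control, 0.125 where that of DNAJB9 was 0.071. In the other settings listed, the counts of the 10 genes called stayed within 1.5 times those given first.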
